A study of Mus musculus with 10 samples.

Results

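Kept OTX2 peaks at gene ends are intervals bound by HA-tagged OTX2 in definitive endoderm (DE) that overlapped an interval from epiblast stem cells (EpiSCs) by at least 1 bp and whose centre lay within 1 kb of either end of a protein-coding gene. On chromosomes 1 to 19 and X, 2011 of 42694 DE peaks met both conditions (4.71%, 95% Wilson interval 4.51 to 4.92%). They made up 40.4% of the 4977 kept DE peaks, which were themselves 11.7% of all DE peaks, and 28.2% of the 7142 DE peaks at gene ends. The members were chosen by measured positions, namely this overlap and this distance, so these shares describe the choice and were not tested. The peaks they are set against are the 2966 kept DE peaks away from gene ends and the 5131 DE peaks at gene ends with no EpiSC counterpart, called DE-only below.

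The members came from CUT&RUN, in which an antibody brings a nuclease to its target in permeabilised cells and the DNA released nearby is sequenced. The series held 10 samples of 500000 cells each in 6 groups. The tagged line 7H OTX2-dTAG-EGFP gave 5 EpiSC samples, 2 with anti-HA and 3 with IgG, and 3 DE samples, 2 with anti-HA and 1 with IgG. The parental line 5.8, without a tag, gave DE samples only, 1 with anti-HA and 1 with IgG. EpiSCs, of a BL6/129 hybrid strain, grew in N2B27 that held Activin A at 20 ng/ml, FGF2 at 12.5 ng/ml and NVP at 175 nM. For DE they were moved to CDM, first for 16 h with Activin A at 40 ng/ml plus CHIR at 3 µM, next for 24 h with Activin A at 100 ng/ml plus LDN at 100 nM, and living cells were collected by DAPI sorting. A single tagged line was used, so what is particular to that line cannot be told apart from what holds for OTX2 in these cell states. No expression values were among the files used, and the cell states were therefore not checked against their markers. Descriptions of 2 samples point to files of another sample: EpiSC HA replicate 2 to the DE peak list, and the tagged DE IgG sample to those of DE HA. They were taken to be slips.

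Each state had 1 HA peak list made from both HA replicates, with chromosome, start and end only. The HA values below therefore have no replicate spread, the depth behind them is unknown, and each test compares classes of intervals, not cultures. Peaks are not replicates, neighbouring peaks are not independent, and intervals cover counting error only.

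OTX2 is a homeodomain transcription factor of the bicoid type, known for its roles in the epiblast, the anterior endoderm and the forebrain. Its bicoid-type recognition site is TAATCC. Promoters of housekeeping genes often hold other elements, among them the CCAAT box, bound by NFY, and the GC box GGGCGG, bound by SP and KLF factors. The sequence upstream of the start was compared between promoters under members and other promoters, so promoter stretches under members are shown first.

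Of the genes named here by rule, 6 had a TAATCC match on either strand (GGATTA on the other strand) in the stretch upstream of the start that the member covered. By rule they are printed ahead of stretches without a match, and 9.44% of all promoter windows under members (defined below) held TAATCC. These stretches are from RefSeq, on GRCm38.p6 (the assembly behind mm10), 5′ to 3′ on the strand of the gene. Capitals mark TAATCC or GGATTA and CCAAT or ATTGG.
Sp1, chr15:102406066-102406298, plus strand: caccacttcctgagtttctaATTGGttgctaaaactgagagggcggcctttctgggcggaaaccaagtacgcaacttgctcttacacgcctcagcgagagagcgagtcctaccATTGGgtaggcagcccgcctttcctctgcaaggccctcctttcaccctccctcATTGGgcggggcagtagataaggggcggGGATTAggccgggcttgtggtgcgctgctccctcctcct
Hnrnpc, chr14:52104037-52104271, minus strand: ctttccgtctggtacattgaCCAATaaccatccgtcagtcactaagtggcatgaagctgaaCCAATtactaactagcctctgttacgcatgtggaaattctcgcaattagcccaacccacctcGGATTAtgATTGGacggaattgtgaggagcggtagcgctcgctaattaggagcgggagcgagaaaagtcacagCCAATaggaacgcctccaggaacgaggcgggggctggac
H2ac6, chr13:23683960-23684209, minus strand: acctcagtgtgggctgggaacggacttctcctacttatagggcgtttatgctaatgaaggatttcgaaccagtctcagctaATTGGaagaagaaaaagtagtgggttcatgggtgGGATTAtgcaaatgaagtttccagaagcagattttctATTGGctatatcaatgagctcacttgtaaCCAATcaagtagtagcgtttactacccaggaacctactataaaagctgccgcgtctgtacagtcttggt
Sf3b2, chr19:5295456-5295683, minus strand: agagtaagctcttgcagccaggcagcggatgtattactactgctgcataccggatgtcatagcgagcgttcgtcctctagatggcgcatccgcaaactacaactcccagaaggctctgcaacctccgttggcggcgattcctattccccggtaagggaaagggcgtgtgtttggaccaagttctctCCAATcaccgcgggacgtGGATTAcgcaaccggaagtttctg
Prpf8, chr11:75486620-75486776, plus strand: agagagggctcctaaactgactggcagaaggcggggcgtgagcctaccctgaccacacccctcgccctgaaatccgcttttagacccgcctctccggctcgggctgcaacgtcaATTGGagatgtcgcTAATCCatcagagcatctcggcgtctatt
Mrpl28, chr17:26123319-26123502, plus strand: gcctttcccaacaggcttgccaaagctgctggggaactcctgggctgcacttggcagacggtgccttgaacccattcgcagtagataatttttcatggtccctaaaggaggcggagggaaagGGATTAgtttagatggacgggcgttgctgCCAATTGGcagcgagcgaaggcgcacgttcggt

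All 6 of those stretches also held a CCAAT box, as did 64.9% of all promoter windows under members. Hnrnpc, which encodes a heterogeneous nuclear ribonucleoprotein, had 4 CCAAT boxes, and Sp1, which encodes the GC-box factor itself, had 3. Sf3b2 and Prpf8, both genes of the core splicing machinery, had 1 each. In Mrpl28, a mitochondrial ribosomal protein gene, the 2 matches were the palindrome CCAATTGG read on both strands.

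A further 3 stretches without TAATCC were chosen after their values were seen, to show promoters with several CCAAT boxes under wide members and 1 promoter of a gene marked down in the authors' table.
Tomm40, chr7:19715430-19715679, minus strand: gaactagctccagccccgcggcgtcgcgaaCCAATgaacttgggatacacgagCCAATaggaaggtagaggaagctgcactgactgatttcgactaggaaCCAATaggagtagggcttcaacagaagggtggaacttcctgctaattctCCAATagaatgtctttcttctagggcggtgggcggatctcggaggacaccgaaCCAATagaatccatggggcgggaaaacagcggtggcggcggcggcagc
H2bc6, chr13:23621095-23621344, minus strand: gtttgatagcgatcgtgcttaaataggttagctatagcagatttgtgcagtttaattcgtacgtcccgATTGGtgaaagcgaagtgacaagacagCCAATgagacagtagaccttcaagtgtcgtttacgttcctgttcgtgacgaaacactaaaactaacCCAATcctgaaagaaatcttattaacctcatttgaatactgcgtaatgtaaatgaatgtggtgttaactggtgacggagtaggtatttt
Tle4, chr19:14598184-14598433, minus strand: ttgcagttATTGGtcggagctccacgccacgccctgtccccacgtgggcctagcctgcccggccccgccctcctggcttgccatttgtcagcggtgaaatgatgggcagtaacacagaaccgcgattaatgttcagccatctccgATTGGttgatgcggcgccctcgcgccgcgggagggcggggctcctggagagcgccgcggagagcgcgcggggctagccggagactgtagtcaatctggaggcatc

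The Tomm40 stretch had 5 CCAAT boxes, the H2bc6 stretch had 3 and the Tle4 stretch had 2. Tomm40 encodes the import channel of the mitochondrial outer membrane, H2bc6 a histone H2B, and Tle4 a co-repressor of the Groucho family.

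Members lay mostly just upstream of transcription starts. The rule counted either end of a gene, and the strand, which says which end is the start, could be read for 17274 of 21631 protein-coding genes (79.9%). The nearest end was the start for 1605 members and the 3′ end for 71, and it could not be told for 335. Where it could, the start was the nearest end for 95.8% of 1676 members (94.7 to 96.6%) and for 88.5% of 4140 DE-only peaks (87.5 to 89.5%), or 7.24 points more (p = 5.86e-20 in a two-sided Fisher's exact test, adjusted p = 1.76e-19 by Benjamini-Hochberg over 6 tests). Seen the other way, 30.5% of the 5270 DE peaks nearest a start were members (29.2 to 31.7%), and 13.0% of the 546 nearest a 3′ end (10.4 to 16.1%).

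The centres of 1595 members lay within 1 kb of an annotated start. Their median position was -100.5 bp (interquartile range -163 to -46.8 bp, negative meaning upstream), and 88.0% were upstream. The 3547 DE-only peaks within 1 kb of a start had a median of -67 bp (-145 to -13 bp), with 78.5% upstream. The stretch from 250 bp upstream to the start held 74.3% of these members and 62.2% of these DE-only peaks, so members sat in a tighter band, slightly further upstream.

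**Figure D1:**
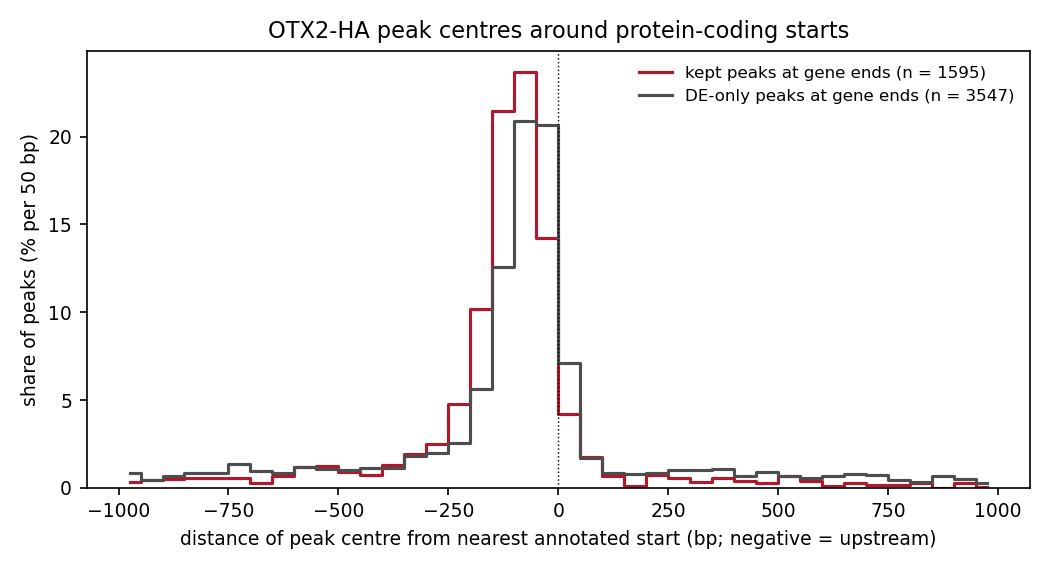
Position of peak centres around the nearest annotated protein-coding start (x axis, bp, negative is upstream), as the share of peaks in each bin of 50 bp (y axis, %), for 1595 kept peaks at gene ends (red) and 3547 DE-only peaks at gene ends (grey). Both have their summit just upstream of the start, with medians of -100.5 bp and -67 bp.

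The share of DE peaks that were kept was lower farther from the gene end. It was 31.7% within 250 bp (30.4 to 33.1%), 23.5% from 250 to 500 bp, 20.6% from 500 to 750 bp and 15.3% from 750 to 1000 bp (12.6 to 18.5%). Median DE widths were also lower from 750 to 1000 bp than within 250 bp: 194 and 234 bp for members, 118 and 130 bp for DE-only peaks. The part of width in the kept share was not tested. The centre was inside the gene body for 25.3% of members and 36.0% of DE-only peaks. Ends of at least 2 protein-coding genes lay within 1 kb of 21.4% of members and 14.4% of DE-only peaks. Between the starts of 2 divergent genes lay 168 members (8.35%), compared with 5.16% of DE-only peaks. These shares are given as a description.

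At the 1 kb limit the rule divides a continuous range of distances. The last members inside were near Pdk2 (997 bp), Limk1 (993 bp) and Ier2 (990.5 bp), with DE widths of 177, 235 and 134 bp. The first kept peaks outside were near Cdk2ap2 (1006.5 bp), Hnrnpul1 (1007 bp) and Pkdcc (1014 bp), with widths of 344, 267 and 255 bp. These 3 outside were all wider than the 3 inside.

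The HA lists carry no score, so the width of an interval was the only measure of its size. Members had a median DE width of 228 bp (interquartile range 169 to 304.5 bp, 62 to 866 bp in all). The kept peaks away from gene ends had a median of 222 bp (148.25 to 311 bp). DE-only peaks at gene ends had a median of 125 bp, but a wider interval overlaps another more easily, so that contrast is linked to the rule. Among kept peaks the gene-end condition did not use width, and 61.5% of members were at least 200 bp wide (59.4 to 63.6%) compared with 57.8% away from gene ends (56.0 to 59.6%). All DE peaks reached 200 bp in 27.5% of cases. The difference of 3.72 points passed the threshold (Fisher's exact test, p = 0.00889, adjusted p = 0.0133), but it turned to -1.64 points when wide meant 300 bp or more (adjusted p = 0.205), while 81.7% of members and 74.7% of the others reached 150 bp. The difference at 200 bp did not pass with gene ends taken within 2 kb (2.03 points) or with the ends of all genes (2.13 points). It was larger with gene ends within 500 bp (6.90 points) and with 50% overlap of both intervals (6.57 points).

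The widest members lay at genes of several kinds. The widest in DE was at Zbtb20, which encodes a BTB-domain zinc finger repressor: 866 bp in DE (chr16:42875061-42875926) over an EpiSC interval of 347 bp. Khsrp, a gene for an RNA-binding splicing and decay factor, had 717 bp in DE and 666 bp in EpiSC. Sp1 had 703 and 688 bp.

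Ubxn6, a gene for a cofactor of the p97 ATPase, had 691 and 684 bp, and Cactin had 691 and 660 bp. H2bc6 had 684 and 584 bp, Leprot 683 and 596 bp, and Tomm40 670 and 431 bp. At all of these but Zbtb20 and Tomm40 the widths in the 2 states lay within 100 bp of each other.

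Most members were wider in DE than in EpiSC. The EpiSC counterpart had a median width of 149 bp (108 to 217 bp), and the centres lay a median of 22 bp apart (9.5 to 42.5 bp). The DE interval was the wider one for 1676 members (83.3%) and the EpiSC interval for 318 (15.8%), and 17 were equal. For 65.5% the EpiSC interval lay wholly inside the DE interval. The DE interval was wider in 74.3% of the kept peaks away from gene ends. With unknown depth, a wider interval and a deeper library cannot be told apart.

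**Figure D2:**
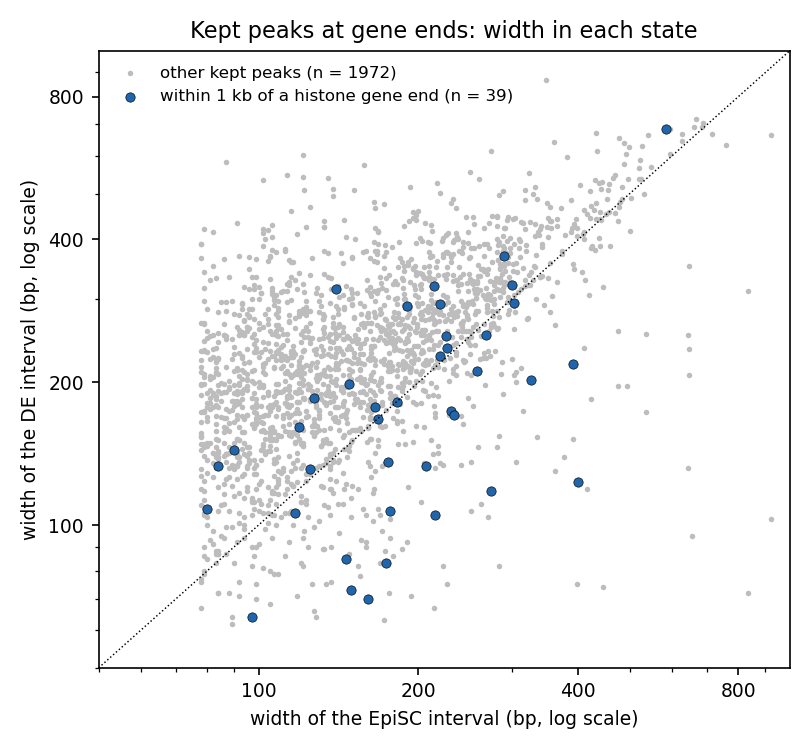
Width of each kept peak at gene ends in EpiSC (x axis, bp, log scale) and in DE (y axis, bp, log scale), with the line of equal width dotted. The grey points, all other kept peaks at gene ends, lie mostly above the line, and the 39 blue points within 1 kb of a histone gene end lie on both sides of it.

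The overlap had a median of 137 bp. It reached 50% of the shorter interval in 1983 members and 50% of both intervals in 1501. No member overlapped by 1 bp only; the smallest overlaps were at Cbl (16 bp), Cdk20 (17 bp) and Mycn (18 bp). Of the 2000 EpiSC intervals under members, 1996 had their own centre within 1 kb of a gene end, and 11 spanned at least 2 members.

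In 42 members the EpiSC interval was at least 2 times as wide as the DE interval, and 14 of these shared an EpiSC interval that spanned at least 2 members. At Zfp78, a zinc finger gene, 1 EpiSC interval of 923 bp covered members of 663 and 103 bp. At Rdm1, an EpiSC interval of 833 bp covered members of 312 and 72 bp. The next widest EpiSC interval, 760 bp at the muscle light chain gene Mylpf, had a DE member of 632 bp.

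Control peaks were too few to measure the background at members. Of the 2011 members, 1 overlapped an EpiSC IgG peak (0.0497%, 0.00878 to 0.281%), as did 21 of the 42694 DE peaks (0.0492%) and 18 of the 2966 kept peaks away from gene ends (0.607%). The member was at Lars2, the mitochondrial leucyl-tRNA synthetase gene, and it overlapped a peak in each of the 3 IgG lists, of 202, 149 and 200 intervals. All 149 intervals of the replicate 2 list recur in the replicate 3 list, so these are 2 distinct lists, not 3. None of the 2011 members overlapped any of the 14 peaks of the untagged parental line (Wilson interval 0 to 0.191%). With lists this short, few overlaps do not show that IgG signal was absent.

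The members lay near many genes, mostly 1 to a gene. In all, 2302 of 21631 protein-coding genes (10.6%) had a member within 1 kb of an end, and a further 21.7% had a DE-only peak there and no member. Of the genes with a member, 153 had at least 2 and 15 had at least 3, and 450 also had a DE-only peak. Of the authors' nearest genes, 1922 distinct names occurred, and the name was that of the nearest protein-coding end for 1646 members (81.8%).

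Genes with 3 members included Akt1s1, Cdca3, Grcc10, Mboat7 and Myc. A member counted for every gene with an end within 1 kb, and at all of these but Myc some members lay nearest another gene. At Myc, the proto-oncogene transcription factor, the members were 305, 196 and 256 bp wide in DE, 956 bp to 120.5 bp from the nearest end, and the closer pair shared 1 EpiSC interval of 474 bp. At Mboat7 members of 200 and 136 bp shared an EpiSC interval of 305 bp.

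Members per 100 protein-coding genes ranged from 3.62 on X to 12.3 on chromosome 19. Chromosomes 11 (12.2) and 15 (11.9) were also high, and 16 (6.48) and 14 (6.82) were the lowest autosomes. With 50% overlap of both intervals the value on X was 1.97.

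Gene lists written from general knowledge were used to describe which functions had members near an end. The share of each list is read against the 10.6% of all protein-coding genes, as a count without a test.

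Some lists held mainly broadly expressed genes. Among these lists, 7 of 24 translation factors had a member (29.2%, Wilson interval 14.9 to 49.2%). So did 19 of 83 cytoplasmic ribosomal protein genes (22.9%, 15.2 to 33.0%) and 8 of 39 proteasome subunit genes (20.5%, 10.8 to 35.5%). The intervals of 5 of 30 RNA splicing factors (16.7%, 7.34 to 33.6%) and 11 of 78 mitochondrial ribosomal protein genes (14.1%, 8.06 to 23.5%) held the share of all genes. Many of the others had a DE-only peak, such as 36 further ribosomal protein genes and 13 further splicing factors. Zinc finger genes named Zfp had members in 57 of 397 (14.4%), and olfactory receptor genes in 1 of 1110 (0.0901%), Olfr368.

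Among translation genes, Eif5a, the hypusinated elongation factor, had the widest member, 522 bp in DE and 402 bp in EpiSC. Eif4a1, the mRNA cap-complex helicase, had 360 and 104 bp. Eef2, the ribosomal translocase, had 281 and 208 bp, near its 3′ end, and Eif1 had 245 and 185 bp.

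Among ribosomal protein genes the widest DE members were at Rpl3l (351 bp), Rpl36 (328 bp), Rplp1 (307 bp) and Rps19 (253 bp). The member at Rpl3l lay near its 3′ end. In the authors' deposited table the nearest gene was Msrb1 for the member at Rpl3l and 2410015M20Rik for that at Rpl36. Of 24 members at ribosomal protein genes, 8 were wider in EpiSC (33.3%, against 15.8% of all members, not tested), among them both members at Rps19, which shared an EpiSC interval of 536 bp. Mrpl38, Mrpl41, Mrps14 and Mrpl28, for the mitochondrial ribosome, had DE widths of 308, 294, 277 and 221 bp.

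Members at proteasome genes had a median of 280 bp in DE and 148 bp in EpiSC. All 8 were wider in DE, where 83.3% of all members were, so the count is near that share. Psmd8 had 404 and 351 bp, Psmc4 331 and 83 bp, Psmb3 328 and 160 bp, and Psmd3 303 and 285 bp. Of the splicing genes, Hnrnpc had 437 and 356 bp, Sf3b2 302 and 226 bp, Hnrnpa1 249 and 176 bp, and Prpf8 243 and 220 bp. Among Zfp genes Zfp444 had 607 and 594 bp, Zfp869 422 and 355 bp, and Zfp143 369 and 212 bp.

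Cell cycle genes had members in 6 of 30 (20.0%, 9.51 to 37.3%), an interval that held the share of all genes. Of the 8 members there, 4 were wider in EpiSC and 4 in DE. Cdc25a, a phosphatase that activates cyclin-dependent kinases, had 297 bp in DE and 166 bp in EpiSC. Ccna2, cyclin A, had 250 and 262 bp, and Mcm2, a subunit of the replicative helicase, 193 and 129 bp.

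Immediate early and stress genes had members in 6 of 20 (30.0%). The AP-1 gene Jun had 527 bp in DE and 217 bp in EpiSC. The stress-response factor gene Atf4 had 367 and 96 bp near its start and 297 and 123 bp near its 3′ end. Gadd45a had 254 and 139 bp, and Ddit3 197 and 121 bp.

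The WNT pathway had members in 7 of 24 genes (29.2%). Of these 7 members, 6 were wider in DE, a share close to the 83.3% of all members. Sp5, a transcription factor gene known as a WNT target, had 543 bp in DE over 121 bp in EpiSC. Tle4 had 449 and 275 bp, Tcf7l2, a DNA-binding effector of the pathway, 367 and 105 bp, and Gsk3b, a kinase of the β-catenin destruction complex, 344 and 266 bp. Fzd7, Tle3 and Wnt8a were the others, and Wnt8a was the one wider in EpiSC, 104 bp in DE and 270 bp in EpiSC.

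The lists closest to the cell states rested on 1 to 3 genes each. Of 24 endoderm genes 2 had one (8.33%, 2.32 to 25.8%), Eomes and Epcam, while a further 11 had a DE-only peak. The member at Eomes, the T-box factor gene, was 885 bp beyond its 3′ end and 395 bp wide in DE over 243 bp in EpiSC. Epcam, an epithelial adhesion gene, had 120 bp in DE and 191 bp in EpiSC.

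Of 24 epiblast and pluripotency genes 3 had a member (12.5%, 4.34 to 31.0%), Sall4 (237 and 225 bp in DE and EpiSC), Tdgf1 (160 and 155 bp) and Nodal (140 and 95 bp). Of 20 genes of the Nodal and TGF-β pathway, which include Nodal and its co-receptor gene Tdgf1, 3 had a member (15.0%, 5.24 to 36.0%). The third was Foxh1, a transcription factor gene of that pathway, with 201 and 139 bp. Of 24 genes of other lineages 1 had a member, Nes (169 and 162 bp), and of 30 chromatin regulators 1 had one, Arid1a, with members of 283 and 199 bp. Such small counts moved with the settings: with 50% overlap of both intervals the WNT list had 3 genes, the mitochondrial ribosomal list 7 and the chromatin list none, and with a limit of 2 kb the epiblast list had 5.

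**Figure D3:**
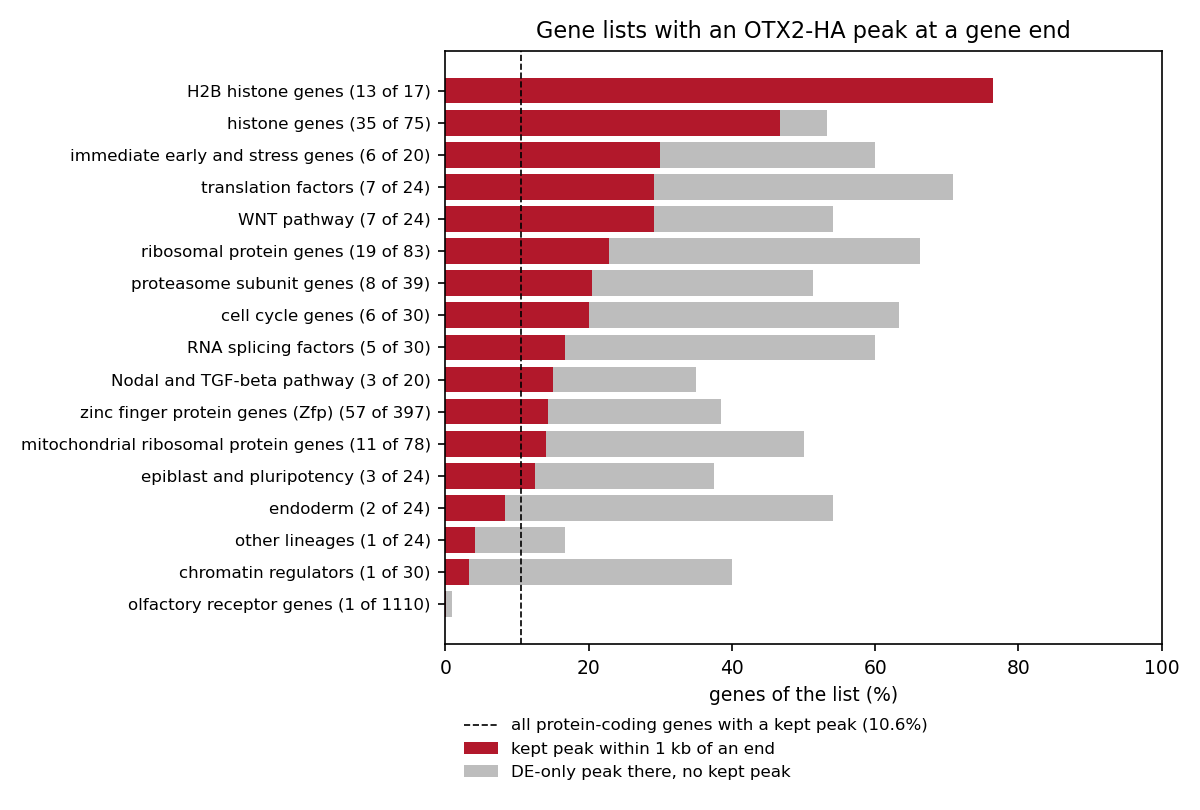
Share of the genes of each list (x axis, %) with a kept peak within 1 kb of an end (red) and, added to it, with a DE-only peak there and no kept peak (grey). The numbers beside each list are genes with a kept peak of all genes listed, and the dashed line is the 10.6% of all protein-coding genes.

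Histone genes stood at the top of the lists. Of 75 histone genes named by a pattern that took H1, H2A, H3 and H4 symbols, 35 had a member (46.7%, 35.8 to 57.8%) and 5 more had a DE-only peak. The pattern missed H2B symbols, and the 17 H2B genes were added after the values were seen: 13 had a member (76.5%) and none had a DE-only peak alone. A peak between 2 divergent histone genes counted for both, so the 2 lists together rested on 39 distinct members, 29 of them on chromosome 13. Many histone genes are near-identical copies, and how reads that match several copies were treated is not given in the sources used here. The split between such copies is therefore uncertain. The promoter stretches printed above for H2ac6 and H2bc6 differed from each other.

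Members at histone genes were about as often wider in EpiSC as in DE, as were the 8 at cell cycle genes. At the cell cycle genes 2 of the 4 members wider in EpiSC shared 1 EpiSC interval. Of the 39, 20 were wider in EpiSC, 18 in DE and 1 was equal, with medians of 190 bp in EpiSC and 174 bp in DE. Over all members, 15.8% were wider in EpiSC. The difference was seen in the data first and was not tested.

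The widest histone member, between H2bc6 and H1f4, measured 684 bp in DE over 584 bp in EpiSC. The next was shared by the pair H2ac6 and H2bc4, 370 and 290 bp, and its sequence is among those printed above. H2bc3 had 321 and 300 bp, the pair H2ac8 and H2bc8 319 and 214 bp, and H2az2, a variant histone gene outside the clusters, 315 and 140 bp. At H4c1 the order turned, with 123 bp in DE and 400 bp in EpiSC.

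The authors' deposited table marks some nearest genes as down or up; the contrast behind these marks is not stated. By the authors' deposited table, 43 members (2.14%, 41 genes) had a nearest gene marked down and 49 (2.44%, 45 genes) one marked up. Over all DE peaks in the authors' deposited table, 3.44% were marked down and 3.27% up. Among DE-only peaks at gene ends the authors' deposited table marked 2.71% down and 3.41% up. The differences of -0.57 and -0.97 points did not pass the threshold (Fisher's exact test, adjusted over the 2 marks p = 0.182 and p = 0.0690). Adjusted over all 6 tests of the report, as the other comparisons are, the up mark passed in Fisher's exact test (p = 0.0414), so its call rests on the adjustment. Over the 2 marks, down passed with 50% overlap of both intervals (-1.12 points) and up with gene ends within 2 kb (-0.96 points). The difference in down marks was -0.28 points with each gene counted once, -0.21 points with gene ends within 500 bp, -0.33 points with the ends of all genes and -2.28 points with only the widest DE peaks, none of them past the threshold. Against the kept peaks away from gene ends, of which 4.21% were marked down, members were marked down less often, by -2.08 points (Fisher's exact test, adjusted p = 1.13e-04). Those 125 marked peaks away from gene ends had only 86 nearest genes, so some genes counted more than once there. This comparison was not repeated with each gene counted once.

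Among the list genes with a member, Sall4, Tle4 and Tcf7l2 were marked down and Eomes and H2bu2 up in the authors' deposited table. Others were picked after their values were seen. Marked down in the authors' deposited table were Slc2a1, a glucose transporter gene, with a member of 424 bp in DE and 123 bp in EpiSC, the ETS factor gene Etv5 (288 and 210 bp), Id3 (243 and 174 bp) and Apela (181 and 112 bp). Marked up in the authors' deposited table were Hsp90b1, an endoplasmic reticulum chaperone gene, with 453 and 451 bp, and Creb3l2 (389 and 173 bp).

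Sequence was not used by the rule, and promoters under members were set against promoters under DE-only peaks. A promoter window ran from 250 bases before to 50 after an annotated start, and 21045 windows of 17274 genes were read. Members overlapped 1652 windows, DE-only peaks at gene ends and no member 2962, and no DE peak 15792. The other 639 windows were overlapped by DE peaks whose centre was over 1 kb from any protein-coding gene end. Each motif was sought as exact letters on both strands, and TAATCC and CCAAT can share bases, the CC at the end of the first and at the head of the second. A match is a description of letters, not of binding.

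The bicoid-type site TAATCC was in 9.44% of windows under members (8.13 to 10.9%) and 5.98% under DE-only peaks (5.18 to 6.89%). All windows held it in 6.39% of cases, and windows with no DE peak in 5.98%. The 639 windows under other DE peaks held it in 10.5% (8.34 to 13.1%), so a share as high as that of members was not particular to them. The difference between members and DE-only peaks of 3.47 points passed the threshold (Fisher's exact test, p = 1.82e-05, adjusted p = 3.64e-05). With TAATCT allowed as well it was 4.77 points, 15.1% against 10.4%, with 12.7% of all windows and 15.3% of those under other DE peaks. Most promoters under members had no TAATCC in the window.

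The CCAAT box was in 64.9% of windows under members (62.6 to 67.2%), 48.0% under DE-only peaks (46.2 to 49.8%), 38.5% of all windows, 47.3% of those under other DE peaks and 33.6% of those with no DE peak. The difference between members and DE-only peaks was 16.8 points. This comparison was chosen because the shares had been seen to differ, so it is a description and no p is given. At least 2 CCAAT boxes were in 38.9% of windows under members, 21.2% under DE-only peaks and 8.22% of those with no DE peak.

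The CCAAT share differed with peak width. Within members it was 55.9% where the DE peak was under 150 bp, 72.5% from 250 to 300 bp and 67.1% from 300 bp on, so it did not go up with width throughout. Among DE peaks of at least 200 bp the share was 68.2% under members and 61.4% under DE-only peaks, a difference of 6.78 points. Among narrower ones it was 57.6% and 44.5%, or 13.1 points. The difference was therefore smaller among wide peaks, and its part that comes with width was not separated further. The TAATCC difference passed in Fisher's exact test in both width classes: it was 3.51 points among DE peaks of at least 200 bp (9.83% against 6.32%, adjusted p = 0.0185) and 2.60 points among narrower ones (8.56% against 5.96%, adjusted p = 0.0460). With only the widest DE peaks, as many as the EpiSC list has, the CCAAT difference was 5.08 points, and that in TAATCC (3.96 points, adjusted p = 0.158) did not pass in Fisher's exact test.

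Shares of the other motifs are given without a test. The GC box GGGCGG was in 74.6% of windows under members, 71.7% under DE-only peaks and 46.7% of all windows. CCGGAAG, an ETS site, was in 20.6%, 22.5% and 11.7%, and the YY1 motif in 2.12%, 2.23% and 0.893%. The NRF1 motif was in 1.88% under members, 2.57% under DE-only peaks and 1.34% of all windows.

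The E-box CACGTG was in 8.35%, 11.0% and 7.91% of windows under members, under DE-only peaks and of all. The TATA box TATAAA was in 5.15% of windows under members, 6.41% under DE-only peaks and 12.7% of all. The homeodomain motif TAATTA was in 38 of 1652 windows under members, 2.16% under DE-only peaks and 4.47% of all. Median GC content was 60.0% under members, 62.0% under DE-only peaks and 54.3% with no DE peak, and its part in these shares was not tested.

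Within the windows, CCAAT and TAATCC lay mostly under the peak. Members covered 66.4% of the bases of their windows but held 2014 of 2266 CCAAT matches (88.9%), or 6.12 per kb inside and 1.51 per kb outside, a ratio of 4.05. For TAATCC 136 of 159 matches were inside (85.5%), a ratio of 3.00. The ratio was 1.38 for GGGCGG and 0.79 for TAATTA. Under DE-only peaks the ratios for CCAAT and TAATCC were 3.59 and 2.02. Where the peak sits near the start, position and peak move together, which was not separated.

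CCAAT matches were densest from 75 to 50 bp upstream of the start, at 20.5 per 100 windows under members, 15.3 under DE-only peaks and 5.85 with no DE peak. From 125 to 100 bp upstream the values were 12.9, 6.92 and 3.75. TAATCC matches under members were most frequent from 100 to 75 bp upstream, 24 matches or 1.45 per 100 windows, where DE-only windows had 11 matches or 0.37 per 100. With so few matches per bin, the TAATCC positions carry a large counting error.

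**Figure D4:**
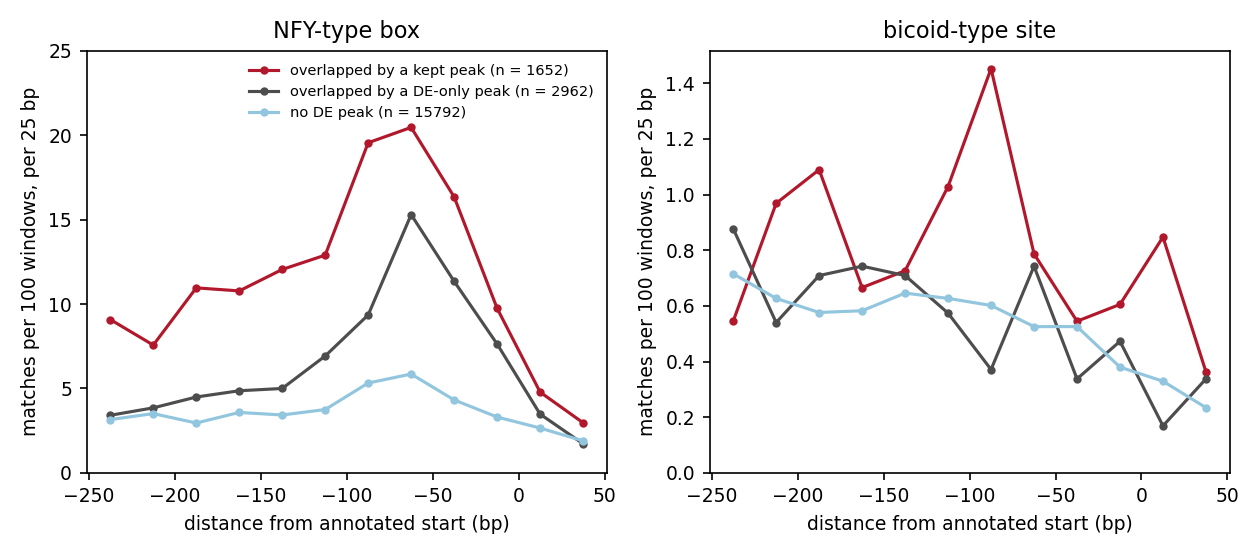
Matches per 100 promoter windows in bins of 25 bp (y axis) by distance from the annotated start (x axis, bp, negative is upstream), for the NFY-type CCAAT box (left) and the bicoid-type TAATCC site (right, on a finer scale), in windows under a kept peak (red, n = 1652), under a DE-only peak (grey, n = 2962) and under no DE peak (blue, n = 15792). The CCAAT curves have their summit at the same place, 20.5, 15.3 and 5.85 per 100 windows.

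By gene list, CCAAT was in 20 of 23 windows of histone genes under members and in all 12 of H2B genes, where each had at least 2. It was in 5 of 6 windows of splicing factors, 7 of 10 of mitochondrial ribosomal protein genes and 31 of 50 of Zfp genes. It was in 4 of 9 windows of ribosomal protein genes and 2 of 7 of both translation and proteasome genes. TAATCC, in 9.44% of all windows under members, was in 2 of 23 windows of histone genes, 4 of 50 of Zfp genes, 1 of 10 of mitochondrial ribosomal protein genes, 2 of 7 of proteasome genes and 1 of 7 of translation factors. It was in 4 of 6 splicing windows, of Hnrnpc, Prpf8 and Sf3b2, in 1 of 5 of immediate early and stress genes, and in none of the 9 ribosomal protein, 6 WNT and 4 cell cycle windows. Counts this small set no list apart.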

How the data were processed

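OTX2-HA was mapped by CUT&RUN in EpiSCs and DE, with IgG and untagged controls. The authors deposited interval coordinates and, in the DE list, each peak's nearest gene with down and up marks; these were the values used. There was 1 HA peak list per state, merged over 50 bp per the file names, with IgG lists per EpiSC replicate and a parental list of fragments of 20 to 120 bp. Per the submitters' processing notes the tools were Bowtie2 2.3.5.1, SAMtools 1.14, Picard 2.26.10, MACS2 2.2.6 and bedtools 2.30, on mm10; the calling threshold and control of the HA lists are not given in the sources used here. Depth is unknown.

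Centres were compared with protein-coding gene ends and promoter windows (RefSeq, GRCm38.p6; 17274 of 21631 genes matched) in Python 3.11.15 with scipy 1.17.1. Shares have 95% Wilson intervals and were compared by Fisher's exact test, two-sided, Benjamini-Hochberg adjusted over 6 tests (over 2 for the marks), at a threshold of 0.05. The CCAAT test in that family was added after its shares were seen and is given without a p; adjusting over the 5 planned tests changed no call made over 6. The code was checked on simulated data. Columns of per-sample values not used numbered 0.

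Named were the 8 widest members in DE, the 5 widest in EpiSC, the 5 genes with most members, up to 4 genes per list, the 3 members inside and 3 kept peaks outside 1 kb, up to 3 with the least overlap, and up to 6 promoters, TAATCC first. The rule for least overlap asked for 1 bp; none had it, so the smallest were taken. Members, lists and rules were chosen with earlier results of these data known. Overlap, distance, gene set, IgG, width and motif settings were varied.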

Additional observations from a re-analysis of the deposited data

How the results depend on the processing

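No paired analysis was possible because a single HA list stands for both replicates of a state. Of 65 alternative values for the comparisons other than CCAAT, 54 neither crossed the threshold nor turned, nor moved where there was no test. When only the widest DE peaks were used, as many as the EpiSC list has, the members numbered 773, 92.5% of them were wider in DE, the difference in TAATCC (3.96 points, Fisher's exact test, adjusted p = 0.158) no longer passed, and that in CCAAT was 5.08 points (68.8% against 63.7%); the test of peaks of 200 bp or more gave no value there, since all were. The CCAAT difference, given without a test, was 13.1 points among DE peaks under 200 bp, 6.78 points among wider ones and 15.4 to 17.3 points in the other alternatives. The share of members wider in DE was 85.1% within 500 bp and 81.3% with the ends of all genes. The difference in wide peaks was 2.03 points within 2 kb and 2.13 points with the ends of all genes, neither past the threshold. It was -1.64 points at 300 bp, 6.90 points within 500 bp and 6.57 points with 50% overlap of both intervals. The difference in down marks passed with 50% overlap of both intervals (-1.12 points) and against kept peaks away from gene ends (-2.08 points), and was -0.28 points with each gene counted once and -0.21 points within 500 bp; that in up marks passed within 2 kb (-0.96 points, Fisher's exact test, adjusted p = 0.0490). The number of members at IgG peaks was 1 with each of the 3 IgG replicates left out in turn, 1 to 1, though replicate 2 recurs in whole in replicate 3. Of 58 values for gene lists and chromosome X, 8 moved, among them the WNT list (3 of 24 genes with 50% overlap of both intervals) and members per 100 genes on X (1.97). The cause was not tested. Unknown depth limits every statement on width.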

Other observations

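Members also lay near genes annotated as small nuclear RNAs, which serve RNA processing, a group picked after its values were seen. An end of such a gene was within 1 kb of 18 members (0.895%, 0.567 to 1.41%), of 11 DE-only peaks at gene ends (0.214%) and of 25 kept peaks away from protein-coding ends (0.843%). Of the 18 members, 12 were wider in EpiSC and 6 had an EpiSC interval at least 2 times as wide. Over all members these shares were 15.8% and 2.09%, and the difference was not tested. At Rdm1 2 members shared 1 EpiSC interval of 833 bp, and at Sirt4 2 shared 1 of 445 bp, so the counts are not independent. At Rnu7, the U7 RNA gene that serves histone mRNA processing, a member of 196 bp in DE lay 54.5 bp from the end, under an EpiSC interval of 493 bp. At Rnu12 a member of 227 bp lay 30 bp from the end, under 273 bp in EpiSC, and at Rnu3a, the U3 RNA gene, a member of 352 bp lay under 647 bp. Genes of this class often have near-identical copies, so the assignment of reads is uncertain.

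Ends of long non-coding RNA genes lay within 1 kb of 10.8% of members and 11.0% of DE-only peaks at gene ends, and ends of tRNA genes lay near 8 members (0.398%), 10 DE-only peaks at gene ends (0.195%) and 16 kept peaks away from gene ends (0.539%).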
